A study of Canis lupus familiaris with 2 samples.

Results

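A block of dog chromosome 27, from 22700001 to 24100000 in the canFam3 build, had more DNA methylation in MDCK cells treated with TGF-beta than in untreated MDCK cells. MDCK is an epithelial line from dog kidney. One culture received TGF-beta at 5 ng/ml and is labelled mesenchymal, and the control culture was untreated, was kept for 30 days beside it and is labelled epithelial. Each group has 1 whole-genome bisulfite library, so no difference here has a replicate check and none was tested. The labels do not say whether the cultures come from 1 clone.

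The block was chosen because its 14 adjacent domains of 100 kb were each higher in the TGF-beta library, so the size of that difference is a description and not a finding. Its members are the fixed windows of 1000 bp with 5 or more CpG sites that each had 5 or more calls in both libraries, the 2 strands of a site being summed. There are 474 such windows among the 1400 of the block, and among 1497941 windows of this kind in the genome. They hold 3680 of the 5643 covered sites in the block, or 65.2%. The flanks are the 600 kb on each side, with 305 windows on the left and 282 on the right. A call is 1 read base over a CpG cytosine, and the level is the methylated calls as a percentage of all calls. A member window had a median of 239 calls in the TGF-beta library and 255.5 in the control, and never fewer than 48 in either. Intervals are exact 95% binomial (Clopper-Pearson) intervals, which cover counting error only.

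In mammals most CpG cytosines are methylated, and methylation is copied to the new DNA strand after replication by the maintenance methyltransferase DNMT1. Long partially methylated domains are stretches in which this copying is thought to be incomplete. They are usually poor in CpG and genes, replicate late and lie at the nuclear lamina, and they are common in cultured cells and tumours. Within them, CpG sites that stand alone tend to be less methylated than sites in clusters. CpG islands, short dense clusters of CpG at many promoters, are mostly unmethylated wherever they lie. TGF-beta, a secreted signalling protein, can turn epithelial cells such as MDCK into mesenchymal ones. Genes in the block are not analysed here for want of a canFam3 annotation in use.

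The block formed the left and larger part of one long stretch of low methylation in the control. In that library 18 adjacent domains of 100 kb, from 22700001 to 24500000, were each under 70%, a limit chosen after the values were seen. The next domain on the left was at 80.1% in the control and the next on the right at 72.2%. In the TGF-beta library the stretch of domains under 70% was 8 domains long, from 23700001 to 24500000. It thus began 1000 kb further right, and it ended at the same domain.

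**Figure D1:**
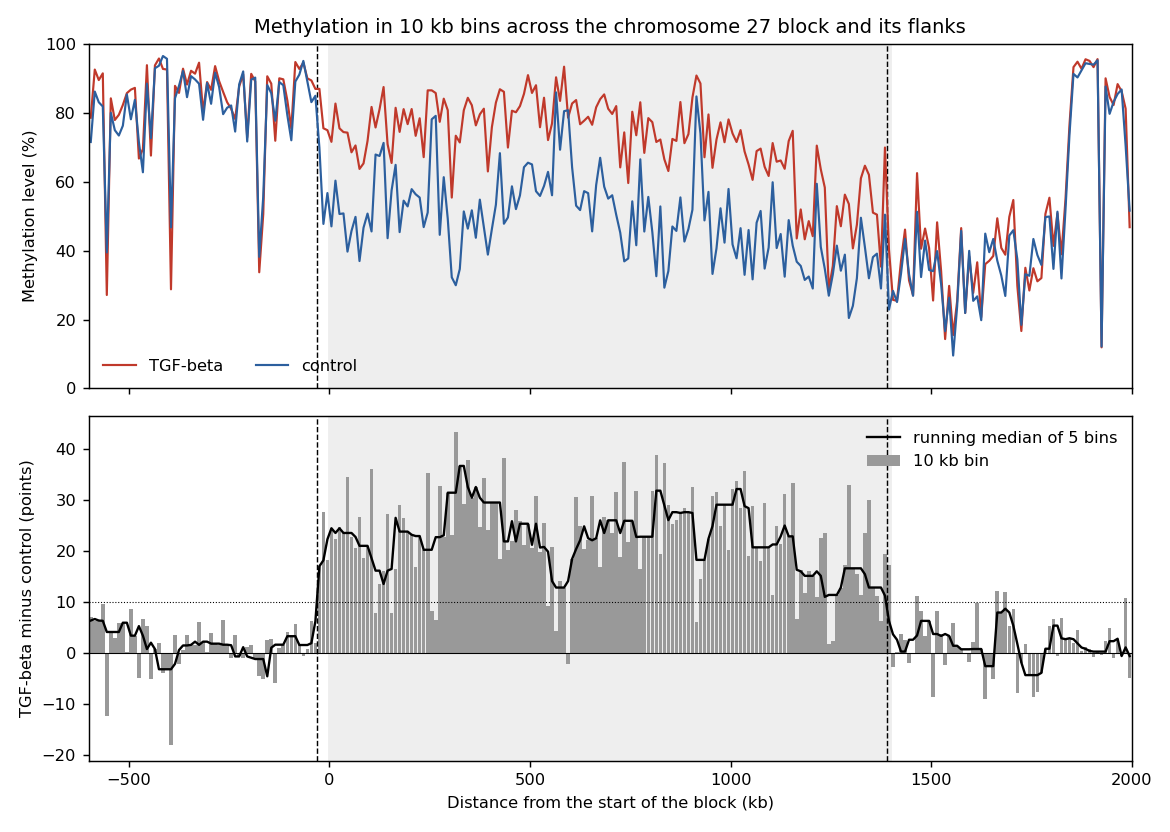
Upper panel: methylation level (%) of the TGF-beta library (red) and of the control library (blue) in bins of 10 kb against distance in kb from the start of the block. Lower panel: TGF-beta minus control in percentage points per bin (grey bars) with the running median of 5 bins (black line) and the 10 point threshold (dotted); grey shading marks the block and dashed lines its edges. Inside the edges the red line lies above the blue one in each bin but that at 23290001. Outside them no side is above throughout, and single bins part, the farthest being that at 22300001 in the left flank, with 28.8% in the TGF-beta library and 46.8% in the control.

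Over the member windows the level was 72.6% (72.3 to 72.8) in the TGF-beta library, against 52.9% (52.7 to 53.2) in the control, a difference of 19.6 points. By the mean of site levels, which gives each site the same weight whatever its depth, it was 72.2% against 54.2%. The 1963 covered sites outside member windows, which lie in the CpG-poorest sequence of the block, were at 69.0% (68.6 to 69.3) in the TGF-beta library and 43.8% (43.4 to 44.1) in the control. Their difference was 25.2 points, so windows of 5 or more sites leave out the sparse sequence in which the libraries differed more. Seen from the other side, unmethylated calls made up 28.5% of all calls at covered sites of the block in the TGF-beta library and 50.4% in the control.

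The level reached in the block lay between those of its flanks. In the TGF-beta library the block windows were 3.67 points below the windows of the left flank, and in the control they were 24.9 points below them. Against the windows of the right flank they were 17.8 points above in the TGF-beta library and 1.71 points below in the control. The left flank itself was at 76.2% (76.0 to 76.5) in the TGF-beta library and 77.9% (77.6 to 78.1) in the control, and the right flank at 54.8% (54.5 to 55.1) and 54.6% (54.3 to 55.0). The sign of the small flank difference is not fixed: over both flanks it was -1.34 points by summed calls and 1.44 points with sites weighted equally. The small gap to the left flank in the TGF-beta library depended on which sites were counted. The block minus left flank value was -1.11 points by the mean of site levels, -10.1 points against the nearest 300 kb, 0.854 points on the plus strand alone and 6.87 points in windows of 10 or more sites. Among these dense windows the left flank holds unmethylated ones.

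The right flank has parts of unlike level, and the part next to the block showed almost no difference. Over its first 400 kb, a boundary set after the values were seen, the level was 37.5% (37.1 to 37.9) in the TGF-beta library and 36.9% (36.5 to 37.2) in the control, over 1695 sites. In the control the block stood only 12.8 points above this stretch, whereas in the TGF-beta library it stood 34.04 points above it. The remaining 200 kb was at 66.1% in the TGF-beta library and 68.3% in the control by summed calls, and at 67.2% and 65.8% by the mean of site levels.

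Edges were placed on bins of 10 kb, as the ends of the longest stretch in which the running median of 5 bins of the difference was 10 points or more. They fell at 22670001 on the left and 24090000 on the right, a length of 1420 kb. Of the 142 bins between them, 130 were higher by 10 points or more in the TGF-beta library and 95 by 20 points or more, with a median of 23.0 points. The largest difference was 43.4 points, at 23010001 to 23020000, with 73.4% in the TGF-beta library and 30.0% in the control. One bin was lower in the TGF-beta library, at 23290001, with 78.6% in the TGF-beta library and 80.8% in the control over 20 sites.

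The left edge coincided with a step in the control level. In the 100 kb outside it the level was 89.7% (89.3 to 90.0) in the TGF-beta library and 86.7% (86.3 to 87.1) in the control, and no bin there differed by more than 6.30 points. In the 100 kb inside it the level was 74.8% (74.1 to 75.4) in the TGF-beta library and 51.2% (50.4 to 51.9) in the control, and every one of the 10 bins differed by 17.1 points or more. The step at this border was thus present in both libraries and smaller in the TGF-beta library. The bin at 22660001 was at 87.0% in the TGF-beta library and 85.0% in the control, and the bin at 22680001 at 75.5% and 47.8%.

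The right edge coincided with no such step in the control. In the 100 kb inside it the level was 55.9% (55.0 to 56.7) in the TGF-beta library and 37.5% (36.7 to 38.4) in the control, and in the 100 kb outside it 37.8% (37.0 to 38.6) and 34.2% (33.4 to 35.0). The bin just outside, at 24090001, still stood at 40.3% in the TGF-beta library and 22.9% in the control, and the one after it at 25.7% and 28.3%. From this edge the low control stretch went on for 410 kb. With a threshold of 15 points, or by the mean of site levels, the longest stretch began only at 23300001 or 23290001 and ended at 23930000 in each case. The running median dips around 23290001, within the domain where the control was already highest in the block.

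**Figure D2:**
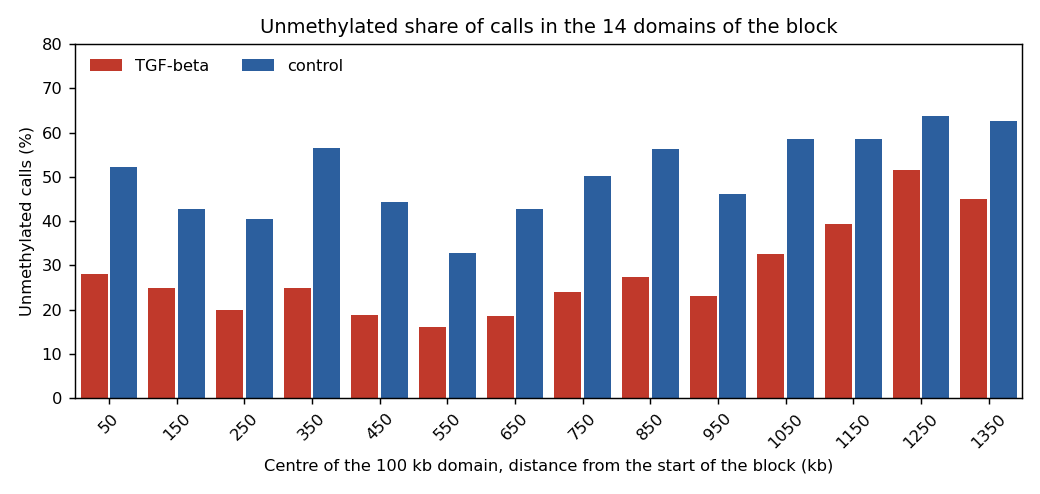
Unmethylated calls (%) in the 14 domains of 100 kb of the block, ordered by distance from its start, for the TGF-beta library (red) and the control library (blue). Each red bar is lower than the blue bar beside it, and red bars are highest in the last 3 domains.

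The level reached in the TGF-beta library was not even along the block. Its 14 domains ran from 48.5% to 83.9% in the TGF-beta library, with a median of 75.1%, and from 36.3% to 67.3% in the control, with a median of 48.8%. Differences ran from 12.2 to 31.7 points, with a median of 23.5. The smallest was at 23900001 to 24000000, with 48.5% in the TGF-beta library and 36.3% in the control. The largest was at 23000001 to 23100000, with 75.2% in the TGF-beta library and 43.5% in the control. The domain at 23200001 was the highest of the block in each library, at 83.9% and 67.3%, and differed by 16.6 points.

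The last 3 domains, grouped after their values were seen, reached a lower level than the first 11. They were at 55.04% (54.6 to 55.5) in the TGF-beta library and 38.7% (38.3 to 39.1) in the control. The first 11 were at 76.3% (76.1 to 76.6) in the TGF-beta library and 52.7% (52.4 to 52.9) in the control. The differences were 16.3 and 23.7 points, so the part next to the right edge was the lower one in each library and had the smaller difference. As means of site levels they were 17.1 and 21.4 points.

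Domains of like control level elsewhere were mostly little different between the libraries. On the autosomes outside the block 13229 domains had a control level between 31.3% and 72.3%, which is the range of the block domains widened by 5 points. Their median was 50.7% in the TGF-beta library and 48.4% in the control, and the median difference was 1.26 points with quartiles of -0.902 and 3.76. Of these 480, or 3.63%, exceeded the control by at least 10 points, which all 14 block domains did by the way the block was chosen, against a background of 2.32% of 23275 domains in the genome.

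Windows varied more than domains. Over the 474 members the difference had a median of 20.1 points, with quartiles of 11.1 and 28.4, a lowest value of -8.16 and a highest of 52.1. The SD over windows was 12.3 points, where binomial counting alone gives 4.30 points. That value takes each call as independent, but 1 read can give calls at more than 1 site of a window, so it may be too small. In 239 windows, or 50.4%, the TGF-beta level was 20 points or more above the control, and in 0 it was as far below, where the background over all windows of the genome is 2.24% higher and 1.45% lower. Since the same contrast chose the block, nothing is read from that. The windows nearest to the limit differed by 19.9 points, at 23573001, and by 20.04 points, at 23102001. In the left flank 10 of 305 windows were higher by 20 points or more, and in the right flank 7 of 282.

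**Figure D3:**
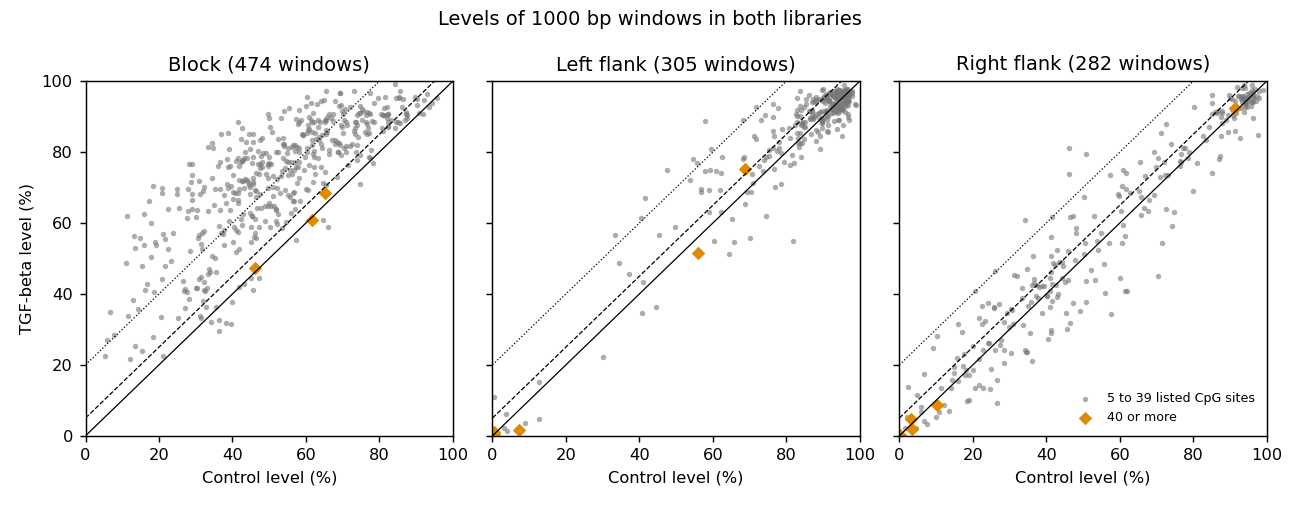
Level of each window of 1000 bp in the TGF-beta library (vertical axis, %) against its level in the control library (horizontal axis, %), for the block, the left flank and the right flank. Lines mark no difference (solid), 5 points (dashed) and 20 points (dotted) higher in the TGF-beta library; orange diamonds are windows of 40 or more listed CpG sites, and the 3 of the block lie below the dashed line.

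Windows at high level were common in the block in the TGF-beta library and windows at low level were lacking. At 80% or more were 191 member windows in the TGF-beta library and 42 in the control. Under 20% were 0 in the TGF-beta library and 28 in the control, and each of those 28 had 5 to 9 listed sites. In the right flank 39 windows were under 20% in the TGF-beta library and 38 in the control, and in the left flank 14 and 14. At 80% or more were 86 windows of the right flank in the TGF-beta library and 83 in the control, and 234 and 220 of the left flank. The block was chosen for its higher TGF-beta level, so nothing is read from its counts. The shares over the genome are not given here.

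The 5 windows with the largest differences were taken among the 96 members with at least 10 sites and 100 calls in each library. The window at 23017001 to 23018000 was at 69.98% (66.7 to 73.1, 826 calls) in the TGF-beta library and 20.8% (16.6 to 25.5, 342 calls) in the control. The window at 23454001 was at 69.6% (65.3 to 73.8) in the TGF-beta library and 24.8% (21.5 to 28.4) in the control, and all 12 of its sites were higher in the TGF-beta library. The window at 23848001 was at 71.7% (68.1 to 75.04) in the TGF-beta library and 28.7% (23.9 to 33.9) in the control. These 3 were low in the control and close to the average of the block in the TGF-beta library, and the other 2 were higher in each. The window at 23106001 was at 87.1% in the TGF-beta library and 50.3% in the control, and the window at 23319001 at 77.8% and 42.8%. Each of the 5 was higher on each strand, by 14.1 points at least.

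The strands, which are read from different molecules, gave like values. Over all covered sites the block was at 73.9% in the TGF-beta library and 52.0% in the control on the plus strand, and at 69.7% and 49.5% on the minus strand. In the 313 member windows with at least 30 calls on each strand in each library, 270 were higher in the TGF-beta library on both strands, 3 were lower on both and 40 had opposite signs. Averaged over the strands, the difference was 20 points or more in 140 of these windows. Their half-difference, which holds no change shared by the strands, did so in 3. The block was chosen for its higher TGF-beta level, which favours windows higher on both strands, so nothing is read from these counts. Such counts are not given here for the flanks or the genome. Across these windows the strands' differences were related (Pearson r = 0.48, Spearman rho = 0.50), a description over windows that share libraries and depth.

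Differences tended to be smaller where the control level was higher. Windows were classed by the control level on the plus strand and read on the minus strand, so that class and value share no calls. The 21 windows under 20% were at a median of 51.2% in the TGF-beta library and 18.97% in the control on the minus strand, with a median difference of 23.4 points. The 94 windows of 40% to 60% had 72.2% and 45.05%, with a median difference of 21.7 points. The classes on each side of these had median differences of 19.96 points (60 windows of 20% to 40%) and 15.1 points (108 windows of 60% to 80%). The 30 windows of 80% or more had 92.3% and 84.3%, with a median difference of 9.47 points. Windows thus kept much of their order: the TGF-beta level on the plus strand and the control level on the minus strand were related (r = 0.61 over the same 313 windows). A window that is high in the control has little room above it. The part of this in the smaller differences was not tested.

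In 52 member windows, or 10.97%, the TGF-beta library was less than 5 points above the control or below it, where the background over the genome is 77.3%. In 20 of them it was below the control, where the background is 46.2%. The choice of the block keeps both shares low, and nothing is read from them. The lowest was at 23882001, with 31.5% in the TGF-beta library and 39.6% in the control by summed calls, but its mean site level was 5.15 points above that of the control. Of the 20 lower windows 5 were also lower by the mean of site levels, and of the 52 windows 30 were also under 5 points by that measure. Many of these small differences therefore rest on how calls were spread over the sites of a window. These 52 windows held 124% as many calls in the TGF-beta library as in the control, and the other 422 held 100.8%; the part of depth in the result was not tested.

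Most of these 52 windows fell into a few kinds. The control level was already 80% or more in 21, out of 42 members at that level. Another 18, of which 2 are among those 21, lay in the last 3 domains, which hold 109 members. The 3 windows of a CpG-dense cluster make up another kind, and 12 windows belong to none of these. Among windows with at least 10 sites and 100 calls in each library, the lowest signed difference was at 23936001, with 44.4% (38.3 to 50.6) in the TGF-beta library and 47.3% (40.4 to 54.4) in the control, although the TGF-beta library was above the control at 8 of its 10 sites and below it at 0. The window at 23894001 was at 36.2% in the TGF-beta library and 35.4% in the control, and that at 24080001 at 78.6% and 77.0%. The other 2 of the 5 lowest belong to the CpG-dense cluster. The domain with most windows under 5 points was at 23900001, with 9 of 38 members, but the share was larger at 23200001, with 8 of 29. The domains at 23400001 and 23500001 had 0 of 35 and 0 of 28.

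CpG-dense sequence was rare in the block, and its densest cluster did not follow the sequence around it. The block held 4.86 listed sites per kb, against 6.73 in the left flank and 6.30 in the right. Of its 14 domains 13 lay under the lower quartile of autosomal domains, which is 590 listed sites. The trait is not particular to the block. Domains in the first 400 kb of the right flank, which showed almost no difference, held 451, 521, 490 and 516 listed sites. Those of the block held 405 to 692, with a median of 480. Only 3 member windows had 40 or more listed sites, and they are neighbours, from 22857001 to 22860000, with 181 listed sites in 3000 bp.

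This cluster was at 61.8% (60.4 to 63.2) in the TGF-beta library and 60.0% (58.2 to 61.8) in the control, a difference of 1.78 points. It was 4.92 points with each site thinned to the lower call count and 4.04 points on the minus strand alone, so its size depends on the weighting of sites. Its windows from left to right were at 68.4%, 47.2% and 61.0% in the TGF-beta library and 65.3%, 46.2% and 61.5% in the control. With sites weighted equally the cluster differed by 4.53 points, and of its 154 covered sites the TGF-beta library was above the control at 93 and below it at 60. The intermediate level was not one common level of all sites. Site levels ran from 0% to 100% in each library, with quartiles of 35.7% and 83.6% in the TGF-beta library and 33.3% and 80.7% in the control. Sites kept their places to a large part (r = 0.71 over 154 sites, which share libraries and lie side by side).

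On each side of the cluster the libraries differed again. The 10 kb before it were at 73.6% (71.4 to 75.7) in the TGF-beta library and 47.2% (45.2 to 49.2) in the control. The 10 kb after it were at 81.5% (80.2 to 82.7) in the TGF-beta library and 64.9% (63.3 to 66.5) in the control. In the nearest 1 kb the TGF-beta library was above the control by 25.6 points before the cluster (11 sites) and 12.8 points after it (8 sites), or by 10.6 and 13.7 points with sites weighted equally. In the flanks, windows of the same density were mostly unmethylated in both libraries. Of 8 such windows on the left 6 were under 20% in each library, and of 5 on the right 4 were. The block had no such window.

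Next in density were the windows at 23453001 with 26 listed sites and at 22916001 with 23. The first was at 77.5% (74.6 to 80.2) in the TGF-beta library and 54.6% (50.6 to 58.5) in the control, with 24 of 26 sites higher. The second was at 69.1% (67.1 to 71.2) in the TGF-beta library and 60.6% (57.6 to 63.5) in the control. By density class, summed levels of the 361 windows of 5 to 9 listed sites were 71.6% in the TGF-beta library and 50.3% in the control. Those of the 106 windows of 10 to 19 were 75.1% and 57.7%, and those of the 4 windows of 20 to 39 were 74.2% and 59.1%. The differences were 21.3, 17.4 and 15.1 points by summed calls and 20.2, 15.7 and 16.6 points with sites weighted equally, so the difference was larger in the sparsest class by each measure, and the class of 20 to 39 rests on 4 windows.

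At the level of single sites highly methylated sites were much more frequent in the TGF-beta library. Among the 4739 sites of the block with 10 or more calls in both libraries, those at 80% or more made up 53.4% in the TGF-beta library and 27.6% in the control. Those between 20% and 80% made up 38.3% in the TGF-beta library and 48.3% in the control, and those under 20% made up 8.29% and 24.2%. The median site was at 82.8% in the TGF-beta library and 51.5% in the control. When each site was thinned to the lower of its call counts, the shares at 80% or more were 53.3% and 27.8%, as far apart as at their own depths.

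**Figure D4:**
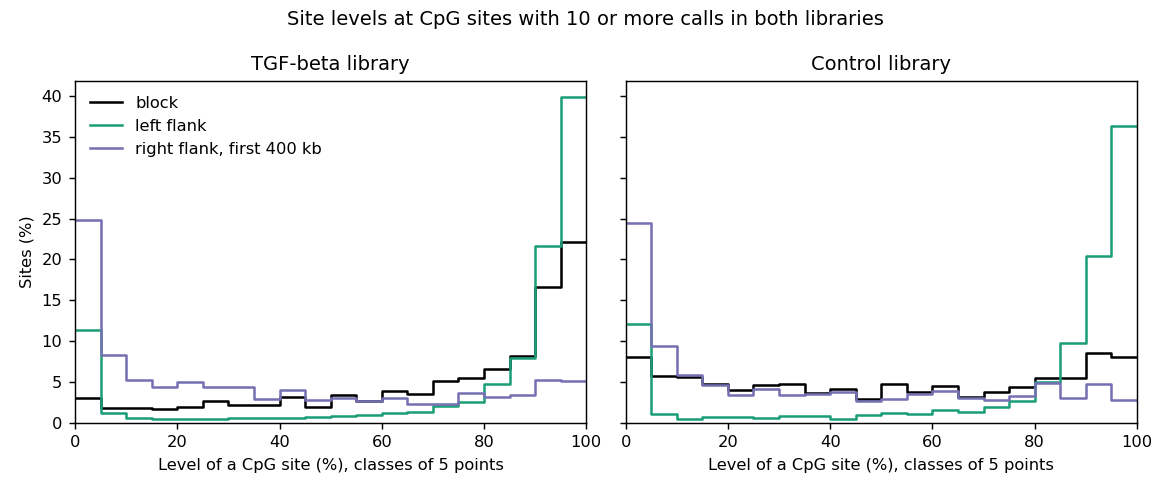
Share of CpG sites (%) by site level in classes of 5 points, in the TGF-beta library (left) and the control library (right), at sites with 10 or more calls in both libraries. In the control the block (black) is spread over all levels, and in the TGF-beta library it has its peak in the top classes, as the left flank (green) does in both panels; the first 400 kb of the right flank (violet) has its peak in the lowest class in both panels.

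The left flank had 74.2% of its 3041 sites at 80% or more in the TGF-beta library and 71.4% in the control. The first 400 kb of the right flank had 16.8% of its 1492 sites there in the TGF-beta library and 15.4% in the control. The block in the TGF-beta library thus held more sites of intermediate level, 38.3%, than the left flank did in that library, 12.3%. The quartiles of its site levels in that library were 53.5% and 94.1%, against 78.5% and 97.1% in the left flank, whereas the SD over sites was 28.6 points in the block and 32.8 points in the left flank, where 13.5% of sites were under 20%.

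Sites low in the control mostly reached intermediate levels. Of the 1145 sites under 20% in the control, 724 (63.2%) were between 20% and 80% in the TGF-beta library, 65 (5.68%) were at 80% or more and 356 (31.1%) were still under 20%. Of the 2288 intermediate sites of the control, 1221 (53.4%) were at 80% or more in the TGF-beta library and 37 (1.62%) were under 20%. Of the 1306 sites at 80% or more in the control, 1246 (95.4%) were in that class in the TGF-beta library too and 0 were under 20%. Sites were classed by the same control calls that enter the comparison, and such shares are not given here for the flanks or the genome. The block was also chosen for its higher TGF-beta level, so these moves are a description only. By sign alone 3908 of 4739 sites were higher in the TGF-beta library and 694 lower. The choice of the block favours this, and the genome share by sign alone is not given here. Higher by 20 points or more were 2116, or 44.7%, and lower by as much were 50, or 1.06%, where the background over 19700914 sites of the genome is 6.94% higher and 6.53% lower.

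Isolated sites differed most. Sites were grouped by the distance to the nearest listed CpG. The choice of the block did not use this distance, but it did use the differences compared here. Distance also went with the control level, and whether it matters apart from that level was not tested. Sites within 19 bp of another were at 81.4% (81.1 to 81.7) in the TGF-beta library and 67.2% (66.8 to 67.5) in the control, a difference of 14.2 points over 1886 sites. Sites 50 to 99 bp away were at 63.3% (62.8 to 63.7) in the TGF-beta library and 39.98% (39.5 to 40.4) in the control, a difference of 23.3 points. Sites 500 bp or more away, of which there were 78, were at 65.4% (63.2 to 67.6) in the TGF-beta library and 31.7% (30.0 to 33.4) in the control, a difference of 33.7 points.

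**Figure D5:**
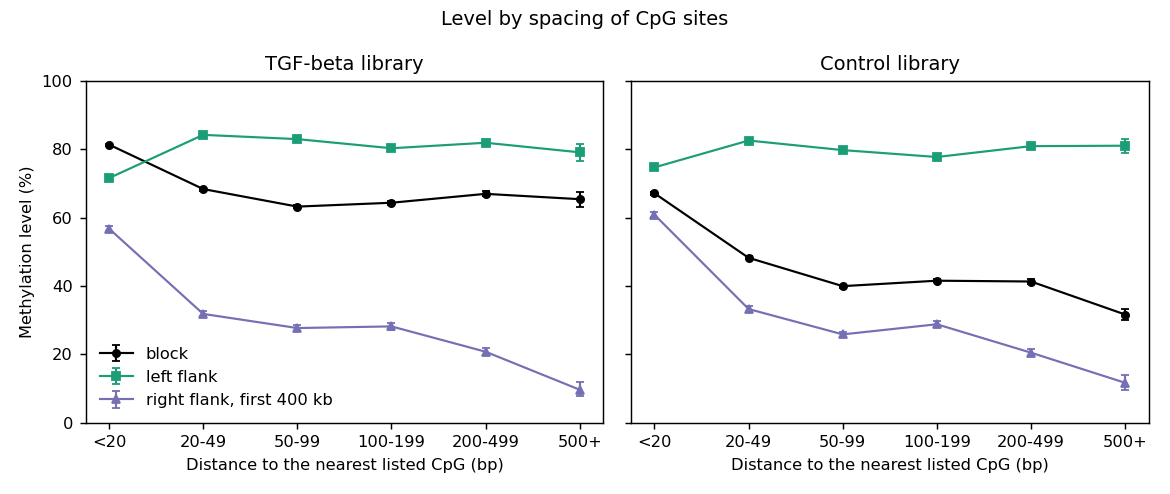
Methylation level (%) against the distance in bp from a site to the nearest listed CpG, in the TGF-beta library (left) and the control library (right), for the block (black), the left flank (green) and the first 400 kb of the right flank (violet); bars are exact 95% binomial intervals. In the TGF-beta library the block is level from 50 bp on. In the control it is also nearly level from 50 bp on, except for a lower most isolated class, which rests on 78 sites. The low part of the right flank falls with distance in both panels.

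Beyond 50 bp the level of the block no longer fell with distance in the TGF-beta library. In the control it fell only in the most isolated class, which rests on 78 sites. Over the 4 classes from 50 bp on it was 63.3%, 64.4%, 67.0% and 65.4% in the TGF-beta library, against 39.98%, 41.6%, 41.3% and 31.7% in the control. In the first 400 kb of the right flank these classes were at 27.7%, 28.2%, 20.8% and 9.67% in the TGF-beta library and 25.9%, 28.8%, 20.5% and 11.7% in the control. In the left flank they were at 83.0%, 80.3%, 81.9% and 79.1% in the TGF-beta library and 79.8%, 77.8%, 80.9% and 81.1% in the control. Over these 4 classes the block in the TGF-beta library thus was about as flat as the left flank, at a lower level. In the control it lay between its neighbours. The likeness did not hold for closer sites. Within 19 bp of another site the TGF-beta level was 81.4% in the block and 71.6% in the left flank. The left flank also held windows of 40 or more listed sites, at 14.5% in the TGF-beta library over 418 sites. Its value for close sites is not given without them. The most isolated class of the right flank rests on 21 sites. Clustered sites were the most methylated of the block in each library, also without the CpG-dense cluster, at 82.7% and 67.5%.

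The depth ratio of the block was close to that of its left flank once CpG density was held alike. It was below those of the right flank and of the rest of the chromosome. Calls of the TGF-beta library were 0.878 times those of the control in the block, 0.980 times in the left flank and 1.08 times in the right flank. They were 1.26 times those of the control on the rest of chromosome 27 and 1.56 times on the 38 autosomes. In windows of 5 to 9 listed sites the ratios were 0.932 in the block, 0.918 in the left flank, 1.07 in the right flank and 1.06 on the rest of the chromosome. Within the block, windows with more calls in the TGF-beta library had a median difference of 18.7 points (234 windows), and those with fewer or equally many 21.3 points (240 windows). In mitochondrial DNA, where methylated calls are taken as failed conversion, the level was 0.329% in the TGF-beta library and 0.211% in the control. Methylated calls were themselves told by their near absence there, so low values were partly set by that choice. Conversion within the block was not tested.

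A pair of other blocks chosen in the same way can be set beside this one. On chromosome 34 from 35.4 to 35.9 Mb the block was at 85.4% in the TGF-beta library and 58.2% in the control, and its 600 kb flanks, pooled, were at 76.8% and 75.7%. On chromosome 15 from 53.7 to 54.6 Mb it was at 68.6% in the TGF-beta library and 48.2% in the control, with pooled flanks at 51.0% and 41.6%. The chromosome 27 block was at 71.5% in the TGF-beta library and 49.6% in the control over all covered sites, with pooled flanks at 65.1% and 65.9%. Each of the 3 blocks was thus above its pooled flanks in the TGF-beta library, which the choice of the blocks favours. On chromosome 27 the left flank was at 77.7% and the right flank at 52.0% in that library, so the block was below the left flank. In the control the chromosome 27 and chromosome 34 blocks were below their pooled flanks and the chromosome 15 block was above its own.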

How the data were processed

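Whole-genome bisulfite sequencing was done on 1 library of MDCK cells treated with TGF-beta and 1 control library. The deposited values are counts of methylated and unmethylated calls per CpG cytosine and strand, without a header. Bismark, Bowtie 0.12.8 and canFam3 are named in the submitters' processing notes, and SOAPaligner2 in the labels' protocols; duplicate removal is not given in the sources used here, and duplicates or overlapping mates would make intervals too narrow. Methylated calls were told from the near absence of one kind in mitochondrial DNA. The libraries held 1019766599 calls (TGF-beta) and 656122583 calls (control). In each file 1 line without a chromosome was left out, as were 0.00656% of calls in runs of cytosines that could not be paired.

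Positions p and p+1 were summed into sites. Levels, windows, edges and shares were computed with numpy 2.4.6, pandas 2.3.3, scipy 1.17.1, pyarrow 21.0.0 and matplotlib 3.10.9 under Python 3.11.15. No test was made, since the block was chosen from this contrast and no group has replicates. Windows and domains were counted by size of difference (20, 5 and 10 points). The edge and level computations were tested on simulated data, which cover counting error only. Named windows, among members with 10 sites and 100 calls per library, were the 5 with the largest differences, the 5 with the lowest signed differences and the 5 with most listed sites. The members, lists and rules were chosen with earlier results of these data known. Gene names, sequence and base context are not analysed here.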

Additional observations from a re-analysis of the deposited data

How the results depend on the processing

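No paired analysis was possible because each group has 1 library and no test was made. The block was higher in the TGF-beta library under each alternative run, by between 15.5 and 21.9 points, and the cause of the spread was not tested. Its difference was 18.03 points by the mean of site levels, 18.3 with calls drawn to the smaller count, 19.1 on the plus strand alone, 17.8 on the minus strand alone, 21.03 in windows of 3 or more sites, 15.5 in windows of 10 or more, 21.5 in windows of 2000 bp and 21.9 over all covered sites, which was chosen after seeing the data. The flank difference, -1.34 points in the report, turned positive at 1.44 by the mean of site levels, 1.64 with calls drawn, 1.13 with flanks of 300 kb and 1.63 with flanks of 1000 kb, and so did that of the left flank alone, at 1.89, 2.22, 1.65 and 0.578. It was -0.988 both with a minimum of 10 calls and without sites over 100 calls (added after seeing the data), -0.229 on the minus strand, -2.80 and -0.891 in windows of 10 or more and 3 or more sites, -0.858 in windows of 2000 bp and -0.799 over all covered sites.

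The TGF-beta level of the block minus that of the left flank was -1.11 points by the mean of site levels, -6.72 with calls drawn, -4.45 on the minus strand, -5.23 in windows of 3 or more sites, -5.80 in windows of 2000 bp, -6.17 over all covered sites, -2.30 without sites over 100 calls and -10.1 with flanks of 300 kb. It was positive on the plus strand, at 0.854, and in windows of 10 or more sites, at 6.87. Against the right flank it was 16.8 with calls drawn, 24.4 and 12.9 on the plus and minus strands, 19.2 and 19.4 in windows of 3 or more and 10 or more sites, 19.05 in windows of 2000 bp, 19.6 over all covered sites, 18.8 without sites over 100 calls, and 31.2 and 10.8 with flanks of 300 and 1000 kb.

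Windows higher by 20 points, 239 of 474 in the report, were 107 of 243 on the plus strand, 82 of 209 on the minus strand, 465 of 855 with 3 or more sites and 34 of 96 with 10 or more, so that both the number of windows and the share moved. Windows under 5 points were 27 of 209 on the minus strand, 94 of 855 and 14 of 96 with those minimums, and 34 of 516 windows of 2000 bp. The longest stretch ran from 23300001 to 23930000 at a threshold of 15 points and from 23290001 to 23930000 with mean site levels. Of 51 alternative values of the 6 named windows higher by 20 points, all were positive and 50 were 20 points or more. These windows were picked by that size and the alternative values draw on the same calls. The outcome was thus largely set in advance, and nothing is read from it. Binomial counting alone, with each call taken as independent, gives the differences of single windows an SD of 4.30 points, of 12.3 points in all.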
